A study of Homo sapiens with 2 samples.

Results

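The H/ACA box small nucleolar RNAs (snoRNAs) were taken as every row of the deposited non-coding RNA table whose gene symbol begins with SNORA, without SNORA73A and SNORA73B. That gave 93 RNAs, each with its own symbol, of 3576 in the table. The cells were A375, an established human melanoma line labelled wild type, after 8 Gy of ionizing radiation and, as control, without irradiation (0 Gy), with 1 library of total RNA per dose and no replicates. The stated purpose was to learn how melanoma cells become resistant to radiation. The authors' deposited table compares 1 library with the other, and no label says which of them is the numerator of its fold changes or that they are these samples, so they are named here by their place in the ratio (numerator library, denominator library), and whether a value went up or down with radiation cannot be read from it. The library kit is named in the labels as one for mRNA, and snoRNAs carry no poly(A) tail in their mature form.

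H/ACA box snoRNAs are guides. Each folds into a pair of hairpins joined by a hinge that carries the H box (ANANNA) and ends in a tail with the letters ACA, and a pocket in the hairpins pairs with an rRNA so that the enzyme dyskerin, held with NOP10, NHP2 and GAR1, turns a chosen uridine into pseudouridine. In human cells most are cut out of the introns of other genes, many of which encode ribosomal proteins, translation factors or nucleolar proteins. Mutations in dyskerin cause dyskeratosis congenita, an inherited failure of the bone marrow.

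For 87 of the 93 the table's RefSeq accession was paired with a transcript in GENCODE 29 (build GRCh38), from which the sequences below were read. The files name no human build, so positions are those of GENCODE. Sequences are shown for the RNAs on which the results turn: SNORA40, one of the members for which the authors' deposited table gives q below 0.05, SNORA48 and SNORA52, which lay below no change with narrow intervals, and 2 pairs of related copies, SNORA38 with SNORA38B and SNORA5A with SNORA5B. Capitals mark the ANANNA match nearest the centre (N is any base) and ACA where it stands 3 bases before the 3′ end.
SNORA40 (chr11:93735111-93735236, minus strand): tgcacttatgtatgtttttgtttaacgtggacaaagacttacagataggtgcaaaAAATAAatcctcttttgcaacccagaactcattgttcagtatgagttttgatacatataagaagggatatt
SNORA48 (chr17:7574713-7574847, plus strand): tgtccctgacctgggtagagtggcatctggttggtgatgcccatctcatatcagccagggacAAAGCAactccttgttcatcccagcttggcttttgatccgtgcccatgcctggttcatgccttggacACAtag
SNORA52 (chr11:811681-811814, plus strand): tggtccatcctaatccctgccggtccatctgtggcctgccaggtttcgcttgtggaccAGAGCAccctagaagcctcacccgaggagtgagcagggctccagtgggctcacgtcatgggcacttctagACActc
SNORA38 (chr6:31623079-31623210, plus strand): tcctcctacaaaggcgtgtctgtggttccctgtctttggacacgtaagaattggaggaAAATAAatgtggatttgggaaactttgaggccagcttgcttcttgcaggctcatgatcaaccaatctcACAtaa
SNORA38B (chr17:67740669-67740799, plus strand): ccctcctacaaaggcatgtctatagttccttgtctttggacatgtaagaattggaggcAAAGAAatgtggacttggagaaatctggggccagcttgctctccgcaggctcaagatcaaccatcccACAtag
SNORA5A (chr7:45104349-45104482, minus strand): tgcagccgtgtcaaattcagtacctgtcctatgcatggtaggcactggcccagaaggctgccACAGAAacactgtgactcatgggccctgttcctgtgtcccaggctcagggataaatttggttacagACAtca
SNORA5B (chr7:45105968-45106099, minus strand): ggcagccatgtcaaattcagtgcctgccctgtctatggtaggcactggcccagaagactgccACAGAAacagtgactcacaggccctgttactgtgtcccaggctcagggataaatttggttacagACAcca

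Of the 87 sequences 64 (73.6%) had ACA exactly 3 bases before the annotated end, against 3 (2.1%) of 144 C/D box snoRNAs, the other large snoRNA class, which guides methylation of rRNA. An ANANNA match on the RNA strand lay in the middle one of 3 equal parts of 82 (94.3%) H/ACA sequences and of 52 (36.1%) C/D ones. The lengths ran from 121 to 249 bases with a median of 134, against a median of 84.5 for C/D box snoRNAs. The middle part searched for ANANNA was thus mostly longer in H/ACA sequences, so the shares with a match are not like for like. These matches of letters describe the annotated sequences, which can end a few bases away from the RNA in the cell. SNORA40 as annotated ends 16 bases after its last ACA.

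Each fold change in the table was traced to the smallest pair of whole read numbers that gives it, on a scale where equal reads correspond to a log2 fold change of 0.14. A pair was found for all 93 members and for 3535 of all 3576 RNAs. The reads behind it may be the pair itself or a whole multiple, so SNORA11, SNORA46 and SNORA80B, each at 1 read against 1, need not be rare. The 95% intervals below are exact (Clopper-Pearson) intervals on the pair. They cover counting error only, since reads copied by PCR are not independent molecules. They compare these libraries and not the doses, and nothing here has a replicate check. In a bulk sample fewer cells and less RNA per cell cannot be told apart.

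The H/ACA box snoRNAs as a set lay close to 0 between the libraries. Their median log2 fold change was -0.03, with a middle range (quartiles) from -0.30 to 0.24 and extremes of -1.57 (SNORA78) and 1.14 (SNORA105A), while all RNAs had a median of 0.16 and quartiles of -0.24 and 0.70. Of the 93, 43 lay above 0 (46.2%) and 50 below, where 60.9% of all RNAs lay above 0. The largest p-value in the authors' deposited table belongs to an RNA at a log2 fold change of -0.14 and not at 0. So 3 values of no change are possible: 0, the median of all RNAs and the value of largest p, which is read from that RNA alone. Above the median of all RNAs lay 30 of the 93 members, beside 1788 of all 3576 RNAs. Above the value of largest p lay 56 members, beside 2485 of all RNAs. The side on which most members fall depends on that choice, while the share of members above was below that of all RNAs at each of the 3 values. The same held for the 176 C/D box snoRNAs, of which 92 lay above 0, 68 above the median of all RNAs and 107 above the value of largest p. It also held for the 27 scaRNAs, described below, with 12, 8 and 16. The lower share is therefore not particular to the H/ACA box snoRNAs.

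Past 2-fold in either direction were 6 members, where 22.7% of all RNAs were. SNORA105A and SNORA19 made up the 2 on the high side, which held 16.3% of all RNAs. SNORA77, SNORA11B, SNORA5B and SNORA78 made up the 4 on the low side, which held 6.35% of all RNAs. All 6 rest on small pairs. SNORA19, a guide for the large-subunit rRNA within EIF3A, had 25 reads in the numerator library against 13 in the denominator library, which is 2.11-fold (1.04 to 4.50). SNORA105A had a pair of 2 against 1. SNORA78 had 4 reads in the numerator library and 13 in the denominator library, or 0.338-fold (0.0803 to 1.09), and SNORA5B had 7 and 18, or 0.427-fold (0.151 to 1.07). SNORA77 had 5 and 12 and SNORA11B 2 and 5. Of these 6, the interval of SNORA19 alone stayed on one side of 1. Its lower end, 0.06 on the log2 scale, lay below the median of all RNAs, and the authors' deposited table gives SNORA19 p = 0.165.

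Among the 58 members with a pair of at least 50 reads in 1 library, none reached 2-fold in either direction. Of the 1446 RNAs in the table with such a pair, 7.68% passed 2-fold on the high side and 0.761% on the low side. These 58 had a median of -0.05 and ran from -0.76 to 0.76, and the 66 C/D box snoRNAs of the same depth had a median of 0.01 and ran from -1.21 to 0.86, with 1 past 2-fold. Over all rows the C/D box snoRNAs, 176 in number, had a median of 0.0098, with 15 past 2-fold on the high side and 8 on the low side. Because a pair can be a reduced form of larger numbers, these depth groups leave out some well-read RNAs.

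**Figure D1:**
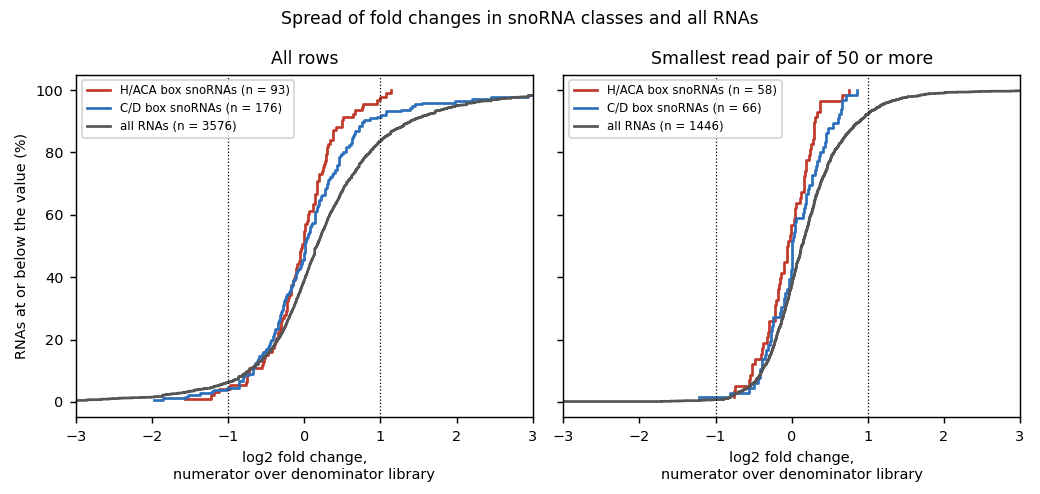
Share of RNAs (%) at or below each log2 fold change, numerator over denominator library, for the H/ACA box snoRNAs, the C/D box snoRNAs and all RNAs, for all rows (left panel) and for rows whose smallest pair reaches 50 reads (right panel); dotted lines mark 2-fold. The curve of the H/ACA box snoRNAs runs between -1.57 and 1.14 in the left panel and stays inside the 2-fold lines in the right one.

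A q below 0.05 was given by the authors' deposited table to 2 members, both with positive log2 fold changes, and to 0.839% of all RNAs. By direction it was given to 0.503% of all RNAs on the high side and to 0.336% on the low side, where no member had it. SNORA73A and SNORA73B, which the rule leaves out, do have it on the low side, at log2 fold changes of -0.34 and -0.50. SNORA68, a guide for the large-subunit rRNA, had a smallest pair of 1219 reads in the numerator library and 1033 in the denominator library, or 1.30-fold (1.19 to 1.41), with p = 6.06e-06 and q = 0.00265 in the authors' deposited table. SNORA40, also an rRNA guide and placed within TAF1D, a gene for a subunit of the RNA polymerase I selectivity factor, had 1272 and 1141, or 1.22-fold (1.13 to 1.33). The authors' deposited table gives SNORA40 p = 5.61e-05 and q = 0.0179. Both changes are well under 2-fold. Another annotated snoRNA gene is at least 95% identical to SNORA40, so reads may have been split between them and its value is uncertain.

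The next lowest q among the members belonged to SNORA48, a guide for the large-subunit rRNA, at 0.0771 in the authors' deposited table (p = 0.000316). Its smallest pair was 1337 reads in the numerator library and 2043 in the denominator library, or 0.719-fold (0.670 to 0.771). Measured from 0 its change is larger than that of SNORA68, at -0.48 against 0.37 on the log2 scale. Measured from the value where the deposited p is largest, it is smaller, at -0.34 against 0.51. Of the 93 members, 87 have a q of exactly 1 there.

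Counted by their intervals, 8 members lay wholly above 1-fold and 13 wholly below, while 72 spanned it. Of all RNAs with a pair 21.4% lay above and 7.72% below. Among members with a pair of at least 50, 7 lay above and 13 below, beside 31.3% and 10.9% of all RNAs of that depth. Asked to clear all 3 values of no change, 3 members remained above and 6 below, beside 14.3% and 4.38% of all RNAs. The 3 were SNORA104, SNORA68 and SNORA40, and the 6 were SNORA67, SNORA49, SNORA48, SNORA84, SNORA52 and SNORA38. These 9 keep their side whichever of the 3 is taken as no change, by counting error alone. Of the 9, only SNORA68 and SNORA40 have a q below 0.05 in the authors' deposited table. The p-value there is 0.243 for SNORA49 and 0.0546 for SNORA67, and below 0.05 for the rest of the 9.

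SNORA104 had the highest fold change among members with a pair of at least 50, at 271 reads in the numerator library and 176 in the denominator library, or 1.69-fold (1.39 to 2.06). Its q in the authors' deposited table is 0.147. SNORA54, within the histone chaperone gene NAP1L4, followed with 55 and 38, or 1.59-fold (1.03 to 2.47). SNORA1 in TAF1D stood at 1.29-fold (1.04 to 1.61). SNORA31, variants of which have been linked to herpes simplex encephalitis and whose gene lies in TPT1, stood at 1.24-fold (1.05 to 1.46). SNORA41, in the elongation factor gene EEF1B2, stood at 1.27-fold with an interval on both sides of 1 (0.880 to 1.83). Judged by the smallest pairs, SNORA104 alone of all 93 combined more than 100 reads in 1 library with a fold above 1.5. Because a pair can be a reduced form of larger numbers, other members may do so too. In the other direction SNORA38, SNORA52 and SNORA84 had such pairs and were lower by 1.69-fold, 1.68-fold and 1.67-fold.

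On the low side SNORA38, in an intron of PRRC2A, had 139 reads in the numerator library and 258 in the denominator library, or 0.592-fold (0.478 to 0.730). SNORA52, a guide for the large-subunit rRNA in the ribosomal protein gene RPLP2, had 232 and 429, or 0.594-fold (0.504 to 0.699). SNORA84, in the isoleucyl-tRNA synthetase gene IARS, had 81 and 149, or 0.597-fold (0.450 to 0.788). These 3 were close to each other, and their intervals ended well short of 1. SNORA49, in the chromatin remodeller gene EP400, stood at 0.756-fold (0.638 to 0.895). SNORA4 stood at 0.685-fold (0.485 to 0.961) and SNORA47 at 0.694-fold (0.486 to 0.984), both reaching at least 1 of the values of no change. SNORA51, in the gene for the C/D core protein NOP56, stood at 0.681-fold with an interval past 1 (0.421 to 1.09).

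**Figure D2:**
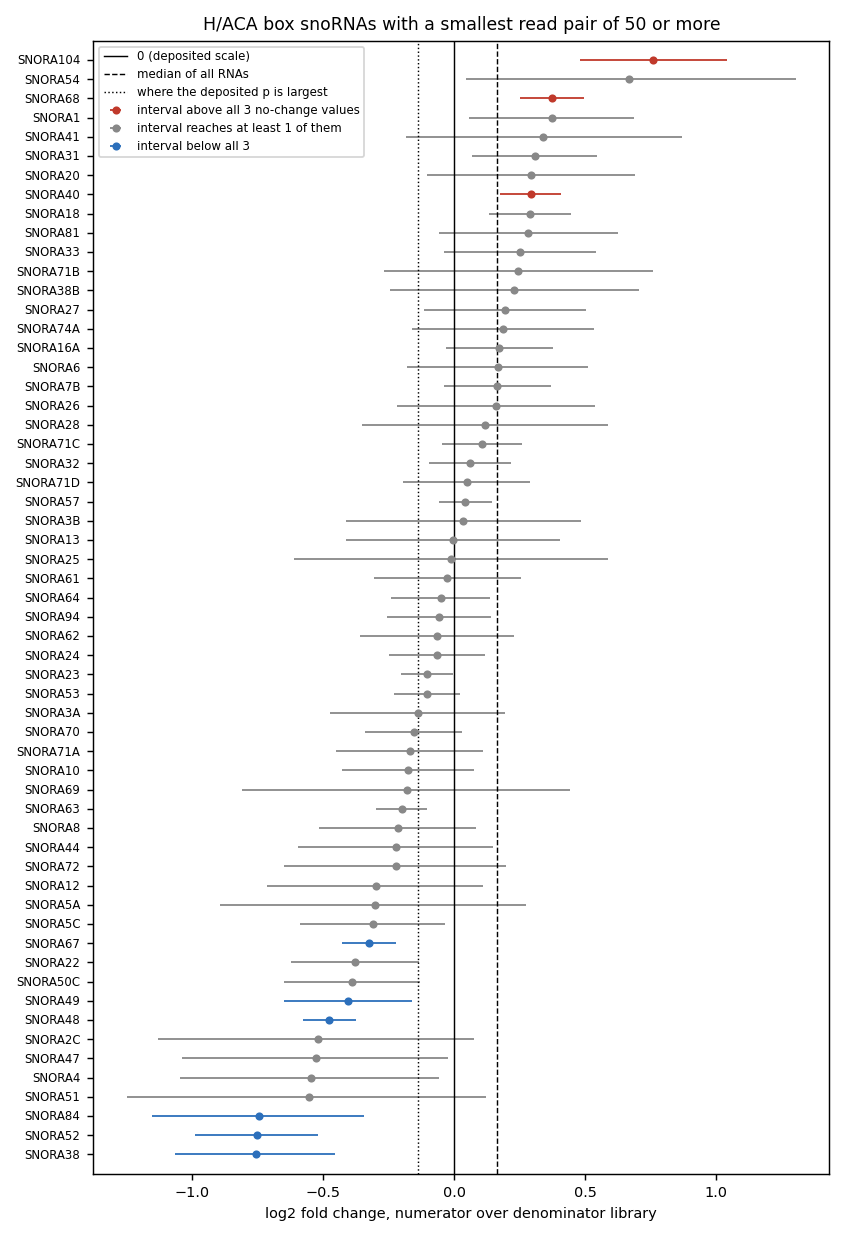
Log2 fold change, numerator over denominator library, of the 58 H/ACA box snoRNAs whose smallest pair reaches 50 reads, with exact 95% intervals; red and blue mark intervals above and below all 3 values of no change (vertical lines), grey the rest. Red are SNORA104, SNORA68 and SNORA40, and the lowest points are SNORA84, SNORA52 and SNORA38.

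The 6 members with the largest pairs were SNORA48, SNORA63, SNORA67, SNORA23, SNORA57 and SNORA40, and they made the sharpest estimates. Together they held 40.9% of the reads in the smallest pairs of all 93. SNORA63, a guide for the large-subunit rRNA, had 1570 reads in the numerator library and 1981 in the denominator library, or 0.871-fold (0.814 to 0.931). SNORA67 had 1326 and 1825, or 0.798-fold (0.743 to 0.857). Both lay below 1, and the interval of SNORA63 reached the value where the deposited p is largest. SNORA23 had 1487 and 1754, or 0.931-fold (0.868 to 0.998), and SNORA57 had 1528 and 1629, or 1.03-fold (0.960 to 1.11). Summed over all 93 members, the smallest pairs held 21542 reads in the numerator library and 24664 in the denominator library, which is a log2 fold change of -0.06.

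**Figure D3:**
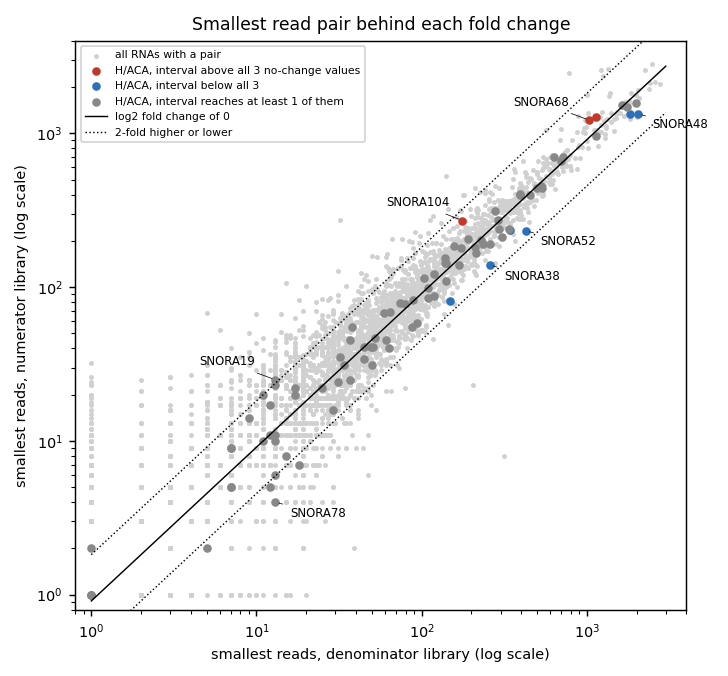
Smallest reads in the numerator library (vertical, log scale) and in the denominator library (horizontal, log scale) behind each fold change, for the 93 H/ACA box snoRNAs (large points) and all RNAs with a pair (small grey points); the solid line is a log2 fold change of 0 and the dotted lines are 2-fold. Members past 2-fold, such as SNORA19 and SNORA78, have small pairs, while SNORA48 and SNORA68 lie close to the solid line.

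All 87 members with a GENCODE entry lay inside another gene on the same strand, 49 of them in introns only and 38 overlapping an exon of some annotated transcript of that gene. Reads of unspliced host RNA can therefore not be told from reads of the snoRNA. The host was a ribosomal protein gene for 16 members, another protein-coding gene for 54 and a non-coding gene for 17. The medians were -0.06, -0.10 and 0.0011. Members overlapping exons had a median of -0.04 and those in introns only -0.05. The 6 members with no entry, SNORA104, SNORA101B, SNORA87, SNORA105A, SNORA99 and SNORA94, had a median of 0.57 and ran from -0.77 to 1.14. SNORA105A, SNORA99, SNORA87 and SNORA101B rest on small pairs, the largest of them 17 reads against 12. SNORA104 and SNORA94, with far larger pairs, stood apart at 0.76 and -0.06. That median therefore describes no shared shift.

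Of 64 hosts, 13 held more than 1 listed member and 36 members between them, and in 6 of the 13 all members lay on the same side of 0. Of these 6 hosts, all but TBRG4 held only 2 members. SNORA60 in SNHG11 and SNORA50A in CNOT1 lay almost at 0, at 0.0011 and 0.0021. Whether 6 is more than unrelated members would give was not tested. TAF1D held 6. SNORA1, SNORA40 and SNORA18 stood between 1.22-fold and 1.29-fold, SNORA32 at 1.04-fold (0.937 to 1.16), SNORA25 at 0.993-fold and SNORA8 at 0.861-fold (0.699 to 1.06). The intervals of SNORA40 (1.13 to 1.33) and SNORA18 (1.10 to 1.36) do not meet that of SNORA8, although all 3 come from 1 gene.

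EIF4A1, the gene for an RNA helicase of translation initiation, held SNORA67 and SNORA48, both below all 3 values of no change. Its paralogue EIF4A2 held 3 members that went apart: SNORA81 at 1.22-fold (0.961 to 1.54), SNORA63 at 0.871-fold (0.814 to 0.931) and SNORA4 at 0.685-fold (0.485 to 0.961). The interval of SNORA81 does not meet that of SNORA63. TBRG4, which encodes a mitochondrial RNA-binding protein, held SNORA5A, SNORA5B and SNORA5C, all below 0. TCP1, which encodes a subunit of the cytosolic chaperonin, held SNORA29 at 1.71-fold (0.689 to 4.48) and SNORA20 at 1.23-fold (0.932 to 1.62), both above 0 with intervals across 1.

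**Figure D4:**
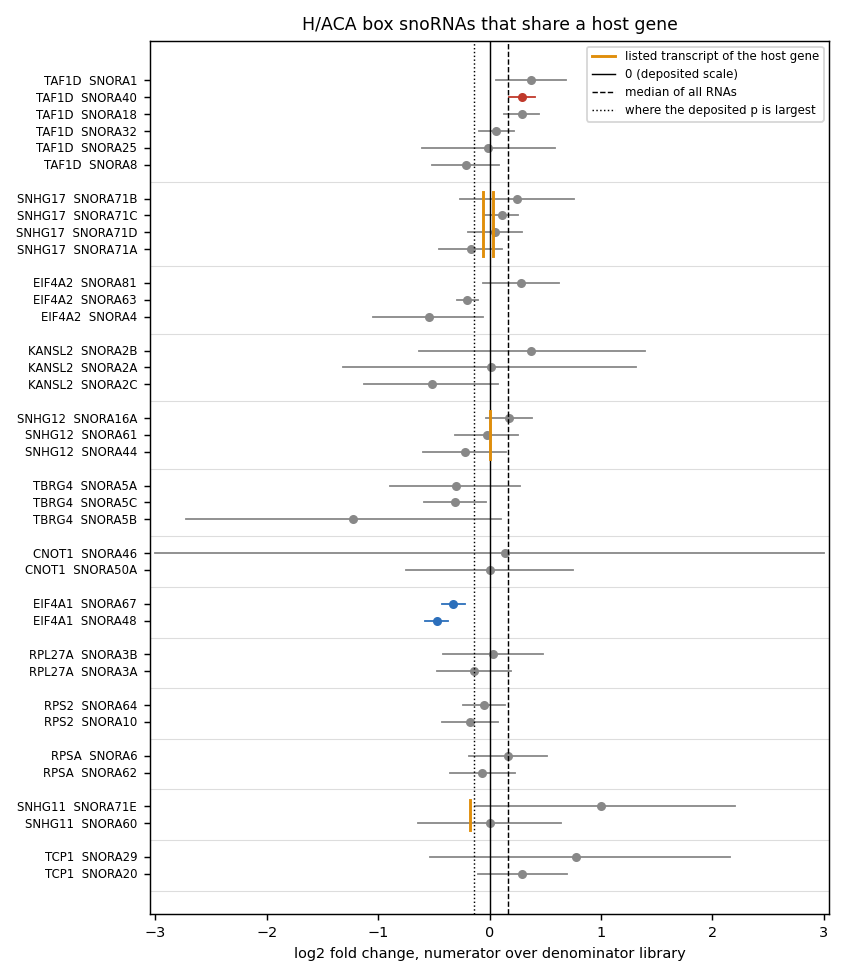
Log2 fold change, numerator over denominator library, of the 36 H/ACA box snoRNAs whose host gene holds more than 1 of them, grouped by host, with exact 95% intervals cut at -3 and 3; red and blue mark intervals above and below all 3 values of no change, and orange lines are listed non-coding transcripts of the host. Both snoRNAs of EIF4A1 are blue, while those of TAF1D run from -0.22 to 0.37.

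Non-coding hosts allow the snoRNA and the host transcript to be set side by side. A list of known non-coding hosts of H/ACA box snoRNAs had 10 of 11 names in the table. Taking the median where a name had several transcripts, the 10 had a median of -0.05. By name 1 lay above 0 (SNHG3) and 9 below, where 60.9% of all RNAs lay above 0. Of the 9, SNHG12 (-0.0003), SNHG15 (-0.0006) and SNHG8 (-0.02) lay almost at 0, and the SNHG17 transcripts lay at -0.06 and 0.03. Those names and EPB41L4A-AS1 lay above -0.14, the value of largest p. SNHG7, SNHG9 and SNHG11 lay below it, and the DANCR transcripts lay on both sides. The count of 9 therefore describes no shared shift. SNHG9 alone of the listed names was past 2-fold. SNHG3 and SNHG7 on that list hold none of the 93. The member hosts SNHG25, CCT6P1 and RPL32P3, at log2 fold changes of 0.12, 0.17 and -0.21, are not on that list. SNORA78 and its host SNHG9 were both low: SNORA78 at 0.338-fold, and SNHG9 with 14 reads in the numerator library and 33 in the denominator library, or 0.466-fold (0.230 to 0.895). SNORA78 overlaps an annotated exon of SNHG9, so these values may share reads. SNORA24, a guide for the small-subunit rRNA, stood at 0.956-fold (0.842 to 1.09) and its host SNHG8 at 0.986-fold (0.922 to 1.06). SNORA13, which also guides the small-subunit rRNA, stood at 0.998-fold (0.752 to 1.32), and its host EPB41L4A-AS1 at 0.948-fold (0.851 to 1.06). Neither pair differed beyond its intervals. SNORA24 also overlaps an annotated exon of its host, as do SNORA16A, SNORA61, SNORA44, SNORA50C, SNORA9 and SNORA71E, described below. Their values and those of their hosts may likewise share reads.

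In SNHG12, SNORA16A, SNORA61 and SNORA44 stood at 1.13-fold, 0.982-fold and 0.857-fold, each with an interval across 1, and SNHG12 itself had 1379 reads in the numerator library and 1515 in the denominator library (0.929 to 1.08). SNORA26 stood at 1.12-fold (0.860 to 1.45), beside 0.938-fold (0.862 to 1.02) for the better-read transcript of its host DANCR. SNORA50C, in SNHG25, stood at 0.763-fold (0.638 to 0.913) beside 1.09-fold (0.818 to 1.45) for the host, with overlapping intervals, and SNORA50C has another annotated copy of at least 95% identity. SNORA9 stood at 1.42-fold (0.721 to 2.85) and its host SNHG15 had 809 reads in the numerator library and 889 in the denominator library (0.908 to 1.10). SNORA47 stood at 0.694-fold while a non-coding transcript of ZBED3, whose intron holds it, stood at 4.69-fold (2.40 to 10.03), and these intervals do not meet.

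Members whose symbols share a number and differ in their letter, called copies here, were listed for 10 numbers and 26 members. They were grouped by symbol and not by sequence. SNORA50A and SNORA50C were only 59.3% identical. Members with different numbers could be closer, such as SNORA30 and SNORA37 at 86.2% and SNORA60 and SNORA71D at 82.1%. No listed member was 95% or more identical to another; the closest were SNORA80A and SNORA80B at 91.9%. Across copies of 1 number the log2 fold changes differed by 0.17 (SNORA3) to 1.32 (SNORA11). The SNORA11 value rests on pairs of 1 read against 1 for SNORA11 and 2 against 5 for SNORA11B, whose intervals (0.0140 to 86.2 and 0.0418 to 2.68) overlap. SNORA38 and SNORA38B, 85.1% identical, stood on opposite sides: SNORA38 had 139 reads in the numerator library and 258 in the denominator library, and SNORA38B, in the nucleolar protein gene NOL11, had 79 and 74, or 1.17-fold (0.843 to 1.63). Their intervals do not meet. SNORA5A and SNORA5B, 89.6% identical and both in TBRG4, stood at 0.810-fold (0.539 to 1.21) and 0.427-fold. SNORA5C, which lies between them, stood at 0.807-fold (0.666 to 0.976). Their intervals overlap.

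SNORA71, a guide for the small-subunit rRNA, had 5 listed copies, of which 4 lie in introns of SNHG17 and 1 in SNHG11. SNORA71C, with the largest pair, had 701 reads in the numerator library and 715 in the denominator library, or 1.08-fold (0.969 to 1.20). SNORA71D stood at 1.03-fold, SNORA71B at 1.18-fold and SNORA71A at 0.889-fold, all with intervals across 1, and the listed transcripts of SNHG17 at 0.962-fold and 1.02-fold. SNORA71E in SNHG11 stood just under 2-fold (0.912 to 4.61) on 20 reads against 11, beside 0.884-fold (0.774 to 1.01) for SNHG11. The SNORA71 copies thus did not separate beyond their intervals. SNORA2A, SNORA2B and SNORA2C, all in introns of KANSL2, stood at 1.01-fold, 1.29-fold and 0.697-fold, again with intervals across 1. Among the SNORA80 copies, SNORA80E, once named SNORA42 and reported as raised in lung cancer, stood at 0.606-fold (0.307 to 1.15) and SNORA80A at 1.34-fold (0.845 to 2.12).

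Other RNAs that work with the dyskerin complex were few in the table. Of 14 names of partner proteins and telomerase components 2 were listed, the telomerase RNA TERC, itself an H/ACA RNA, at a log2 fold change of 0.07 (q = 1 in the authors' deposited table, with no recovered pair), and a non-coding transcript of the dyskerin gene DKC1 at 1.19-fold (0.663 to 2.13). The scaRNAs, which guide modification of spliceosomal RNAs in Cajal bodies and of which many carry the H/ACA structure, had 27 rows with a median of -0.06, 12 above and 15 below 0, 5 past 2-fold and 1 (SCARNA2) given q below 0.05 by the authors' deposited table. SCARNA21 stood at 0.821-fold (0.775 to 0.869) and SCARNA16 at 0.752-fold (0.664 to 0.851). Of 4 structural RNAs of other kinds, RMRP, RPPH1, RN7SK and RN7SL1, all lay below 0, between -0.27 and -0.11 on the log2 scale, and all have a q below 0.05 in the authors' deposited table. RN7SL1 lies above the value where the deposited p is largest.

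The labelled cell type could be checked on non-coding RNAs only. Of 6 melanocyte-lineage names 2 were listed, SAMMSON at 1.09-fold (0.936 to 1.27) and BANCR at 0.815-fold (0.687 to 0.964). None of 5 blood names, 1 of 5 fibroblast and endothelial names and 1 of 5 epithelial names was listed, with log2 fold changes of 0.04 and 0.12. Total reads per library are unknown here, and the recovered scale puts the depth of the denominator library at 1.10 times that of the numerator library.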

How the data were processed

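A375 cells given 8 Gy and 0 Gy were each sequenced as 1 library, per the labels' protocols. Per the file headers, the deposited columns are a log2 fold change with its p-value and q-value, made by the authors; how they were made (alignment, counting, strand, test) is not stated in any source at hand. The submitters' processing notes list the mouse build mm10, while the identifiers are human. A further 2 columns hold values of samples that no label names, and they were left unused.

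The commonest log2 fold change, 0.14 (66 RNAs), was taken as equal reads, and each fold change was searched for the smallest whole-number pair up to 3000 with a relative tolerance of 1.5e-09. The search was tested on simulated data. Intervals are exact at 95%. No test was run, since there is 1 library per dose and no counts per sample were used.

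GENCODE 29 gave sequences and hosts (the same-strand gene that contains the RNA, protein-coding ones first, then the shortest). Identity is over a global alignment. Besides the 6 members with no entry, the sequence and host of 1 more are not reported here. Members were named if q was under 0.05, if among the 6 largest pairs, or the 6 highest or lowest with a pair of 50 or more, or if their number had 3 or more copies. Host genes and the listed hosts were described beside these, and SNORA20, SNORA49 and others outside the rule were chosen after their values were seen. The members, lists and rules were chosen with earlier results of these data known, and the read pairs were devised on these data. Alternatives were other centrings, thresholds and read minimums. Intervals came from scipy 1.17.1, alignments from biopython 1.88 and figures from matplotlib 3.10.9, with pandas 2.3.3 and numpy 2.4.6 under Python 3.11.15.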

Additional observations from a re-analysis of the deposited data

How the results depend on the processing

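The median log2 fold change of the H/ACA box snoRNAs, -0.03, moved to -0.19 when centred on the median of all RNAs and to 0.11 when centred where the deposited p is largest, both by the subtraction itself. It stayed between -0.06 and -0.02 under the read minimums, the centring on C/D box snoRNAs, the summed pairs and the removal of 9 members with a 95% identical annotated copy. The count past 2-fold was 6, with 2 higher and 4 lower. A threshold of 1.5 gave 18, with 8 higher and 10 lower, where 28.9% and 12.9% of all RNAs passed. A read pair of 50 or more gave 0, with 0 higher and 0 lower, and one of 10 or more left 1 higher. Centring on the median of all RNAs gave 0 higher, and centring where the deposited p is largest gave 4 higher. Removing the 9 members left 1 with q under 0.05, since SNORA40 is among the 9. The centring where p is largest and the removal of those 9 were chosen after seeing the data. Removing listed members with a 95% identical listed copy removed none, and a split by intergenic position was not run because no member with an entry was intergenic. No paired analysis was possible because each dose has a single library. Depth limits the members with small pairs most, of which SNORA105A, at 2 reads against 1, has an interval from 0.114-fold to 129.6-fold.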
